A study of Mus musculus with 98 samples.

Results

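The genes described here are 10 imprinted genes that govern fetal growth: *H19*, *Igf2*, *Dlk1*, *Meg3*, *Plagl1*, *Peg10*, *Peg3*, *Mest*, *Cdkn1c* and *Grb10*. They were chosen because earlier results on these data showed lower transcript levels at 4 weeks of age than at E12.5 in thymic stromal subtypes, and lower levels at 4 weeks than at P0 in sorted stromal populations. All 10 were found, among 22231 genes of the single-cell age series, 20760 genes of the newborn single-cell data and 39179 genes of the bulk data. The falls with age are therefore given as a description with no test, and their tests were run only between populations of the same age and between genotypes. Age contrasts were tested only for lists of other imprinted genes and of IGF pathway genes.

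An imprinted gene is transcribed from a single parental allele, and its allele is marked by DNA methylation laid down in the germline. *Igf2* (a growth factor), *Dlk1* (a transmembrane protein related to Notch ligands), *Plagl1* and *Peg3* (zinc finger proteins), *Mest* (a protein with a hydrolase fold) and *Peg10* (derived from a retrotransposon) are paternally expressed. *H19* and *Meg3* (long noncoding RNAs), *Cdkn1c* (an inhibitor of cyclin-dependent kinases) and *Grb10* (an adaptor that restrains insulin and IGF receptor signalling) are maternally expressed in most tissues, and this group tends to hold growth back. Many imprinted genes are abundant in fetal tissues and decline together after birth.

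The age series held cells sorted as Ter119-CD45-EpCAM- nonepithelial thymic stroma (NETS) from wild-type C57BL/6 embryos, newborns (P0) and 4-week-old mice, with 1 library each at E12.5 and E13.5 (thymi pooled from 2 litters) and 2 each at E16.5 and the later ages. The newborn data held Ter119-CD45- stroma, epithelium included, fixed before capture, from 3 wild-type (WT) and 3 Tbx1+/-Crkl+/- libraries. The mutant mice carried a single germline copy of both genes in every cell, the *Tbx1* allele being a LacZ insertion. The bulk data held 84 libraries in 14 groups of 6 from wild-type mice: endothelium (CD31+), pericyte-enriched cells (Ly51+gp38-), capsular (gp38+CD26+) and medulla-enriched (gp38+CD26-) fibroblasts, cortical (cTEC) and medullary (mTEC) epithelium at P0 and 4 weeks, and mTEC with high or low MHC class II (mTEChi, mTEClo) at 4 weeks. The WT newborns were littermates of the mutants, and the methods give 3 mice of each genotype and, at E16.5, P0 and 4 weeks, cells from 2 thymi. For the bulk libraries it is not stated which came from separate animals, so their p-values measure the spread between these samples. The library numbers in their titles repeat the same spacing in each population of an age. Whether the same animals gave several populations is not stated, and all population contrasts were fitted unpaired. Subtype names follow the labels deposited with the cells: CapFb and MedFb for capsular and medullary fibroblasts, Pc and VSM for pericytes and vascular smooth muscle (together mural cells), En for endothelium and Mes for mesothelium.

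The members lie on 5 chromosomes of the mm10 (GRCm38) genome. On chromosome 7 were *H19* (142575529 to 142578143), *Igf2* (142650766 to 142666816), *Cdkn1c* (143458339 to 143461050) and *Peg3* (6703892 to 6730431), all on the minus strand. On chromosome 12 were *Dlk1* (109452823 to 109463336) and *Meg3* (109541001 to 109571726), both on the plus strand, on chromosome 6 were *Peg10* (4747306 to 4760517) and *Mest* (30723547 to 30748465), both on the plus strand, and *Plagl1* (13060504 to 13131694, plus strand) and *Grb10* (11930508 to 12038683, minus strand) were on chromosomes 10 and 11. *Igf2* and *H19* were 72622 bases apart and *Dlk1* and *Meg3* 77664 bases apart. Each of these pairs is known to share an imprinted domain, which the distance alone does not show. Several members overlap another gene (*Igf2* with *Igf2os*, *Meg3* with *Gm26906*, *Mest* with *Copg2*, *Cdkn1c* with *Gm44732*), and because the strand setting of the counting is not stated, how reads of such pairs were divided is uncertain.

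RefSeq promoter windows (GRCm38.p6) are shown for *Mest*, *Plagl1* and *Meg3*, since these were the 3 of 7 members with an entry whose window held TGCCGC, the letters bound, when methylated, by ZFP57, a zinc finger protein that maintains imprints. The windows run 5′ to 3′ on the plus strand, at chr6:30737800-30738049 for *Mest*, chr10:13090582-13090787 for *Plagl1* and chr12:109540746-109540995 for *Meg3*. Capitals mark each match on either strand, which here reads GCGGCA.
Mest: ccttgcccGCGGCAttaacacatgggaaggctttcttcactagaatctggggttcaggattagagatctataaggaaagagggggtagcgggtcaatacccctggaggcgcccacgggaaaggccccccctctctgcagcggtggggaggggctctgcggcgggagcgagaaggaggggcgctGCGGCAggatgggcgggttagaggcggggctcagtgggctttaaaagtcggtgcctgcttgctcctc
Plagl1: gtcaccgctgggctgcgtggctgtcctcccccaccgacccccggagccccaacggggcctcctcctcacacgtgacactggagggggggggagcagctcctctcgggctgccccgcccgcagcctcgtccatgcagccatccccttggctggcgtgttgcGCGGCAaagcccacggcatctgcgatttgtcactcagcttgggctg
Meg3: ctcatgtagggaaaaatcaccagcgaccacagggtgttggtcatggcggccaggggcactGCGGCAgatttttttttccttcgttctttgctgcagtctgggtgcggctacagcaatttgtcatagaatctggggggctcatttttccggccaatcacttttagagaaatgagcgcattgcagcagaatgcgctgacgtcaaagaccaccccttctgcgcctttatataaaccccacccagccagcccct
The *Mest* window held 2 matches and 14 CpG dinucleotides, and the *Meg3* window held 10 CpG. The *Plagl1* stretch shown is the first 206 of the 250 bases of its window. Of all 32851 promoter windows, 8.68% held the letters, against 4 of the 14 windows of the members. Of these 4, 2 are *Mest* windows that start at 30737800 and 30737803 and overlap, so the same sites are counted in both. Counted by gene, 9.84% of 27025 genes held the letters, against 3 of the 7 members with an entry. *H19*, *Peg10* and *Cdkn1c* had no entry.

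The age series comprised 36208 cells with 28583048 to 93040640 UMIs (unique molecules counted) per library, the newborn data 21451 cells with 4978011 to 31418527 UMIs, and the bulk libraries 5785352 to 15852166 counts in genes, except that of gp38+CD26+ 4 weeks replicate 2, which held 25702. In that library 8 of 10 members were at 0, and its markers went against its label, with 497 counts from epithelial markers and 46 from fibroblast markers. The 4-week values of gp38+CD26+ cells are therefore given from the other 5 libraries. Tests were run with and without that library, and the printed test values include it unless stated. Barcodes seen in more than 1 library came to 0.428% of the cells in the age series and 0.205% in the newborn data. The sorted groups otherwise carried their defining markers: fibroblast markers summed to 21202 to 64275 CPM (counts scaled to a library of 1000000) in the P0 gp38+CD26+ libraries and 0.767 to 69.9 CPM in CD31+ cells, and *Dpp4* (CD26) with *Pi16* summed to 7594 to 14637 CPM in 4-week gp38+CD26+ cells against 19.98 to 220.4 CPM in gp38+CD26- cells. The Ly51+gp38- libraries also held 4538 to 10303 CPM of fibroblast markers at P0, and its part in their values was not tested.

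In fibroblasts of the age series all 10 members were lower at 4 weeks than at every earlier age, but the path there differed: 9 of 10 were higher at E16.5 than at E12.5, and *Grb10* alone was highest at E12.5. The median fall from the mean of E12.5 and E13.5 to 4 weeks was 13.8-fold, over UMIs summed across 3297 fibroblasts at 4 weeks. Of all genes, 29.6% fell by over 2-fold between E12.5 and 4 weeks in these cells, and all 10 members did, which is what the rule chose.

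*Igf2* stood at 51.9 CPM at E12.5, 74.8 at E13.5, 58.6 and 60.1 at E16.5, 69.98 and 62.5 at P0, and 0.699 and 0.787 at 4 weeks. *H19*, transcribed from the opposite parental allele of the same domain, stood at 1511, 1708, 2411 and 2426, 2468 and 2368, then 212.9 and 235.1 CPM at the same ages. *H19* was higher at E16.5 and P0 than at E12.5, *Igf2* differed by less than 1.5-fold between the means of these ages, and both were lowest at 4 weeks, where *H19* remained well detected and *Igf2* did not.

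*Dlk1* rose before it fell, from 734.1 CPM at E12.5 and 2323 at E13.5 to 5905 and 5729 at E16.5, 2974 and 3487 at P0 and 9.84 and 21.3 at 4 weeks. Its neighbour *Meg3* went from 2173 and 3996 to 5386 and 5429, 4550 and 4591, and then only to 901.7 and 961.9 CPM. The 4-week libraries lay below every earlier library for both genes. *Mest* (1230, 2099, 2040 and 2086, 1180 and 1180, 46.1 and 55.1 CPM) and *Plagl1* (147.9, 337.3, 579.4 and 595.9, 374.6 and 361.2, 14.4 and 18.5 CPM) also peaked before birth.

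*Cdkn1c* and *Grb10*, which restrain growth, took different courses. *Cdkn1c* stood at 3405, 3175, and 3647 and 3845 CPM in the embryo, at 1483 and 1284 CPM at P0 and at 240.6 and 271.5 CPM at 4 weeks. *Grb10* was lower at each successive age, at 722.4, 514.8, 373.8 and 379.7, 275.1 and 267.4, and 135.8 and 132.6 CPM. *Peg3* (757.2 CPM at E12.5, 140.8 and 171.5 CPM at 4 weeks) and *Peg10* (33.1 CPM, then 1.998 and 1.81 CPM) ended low as well.

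**Figure D1:**
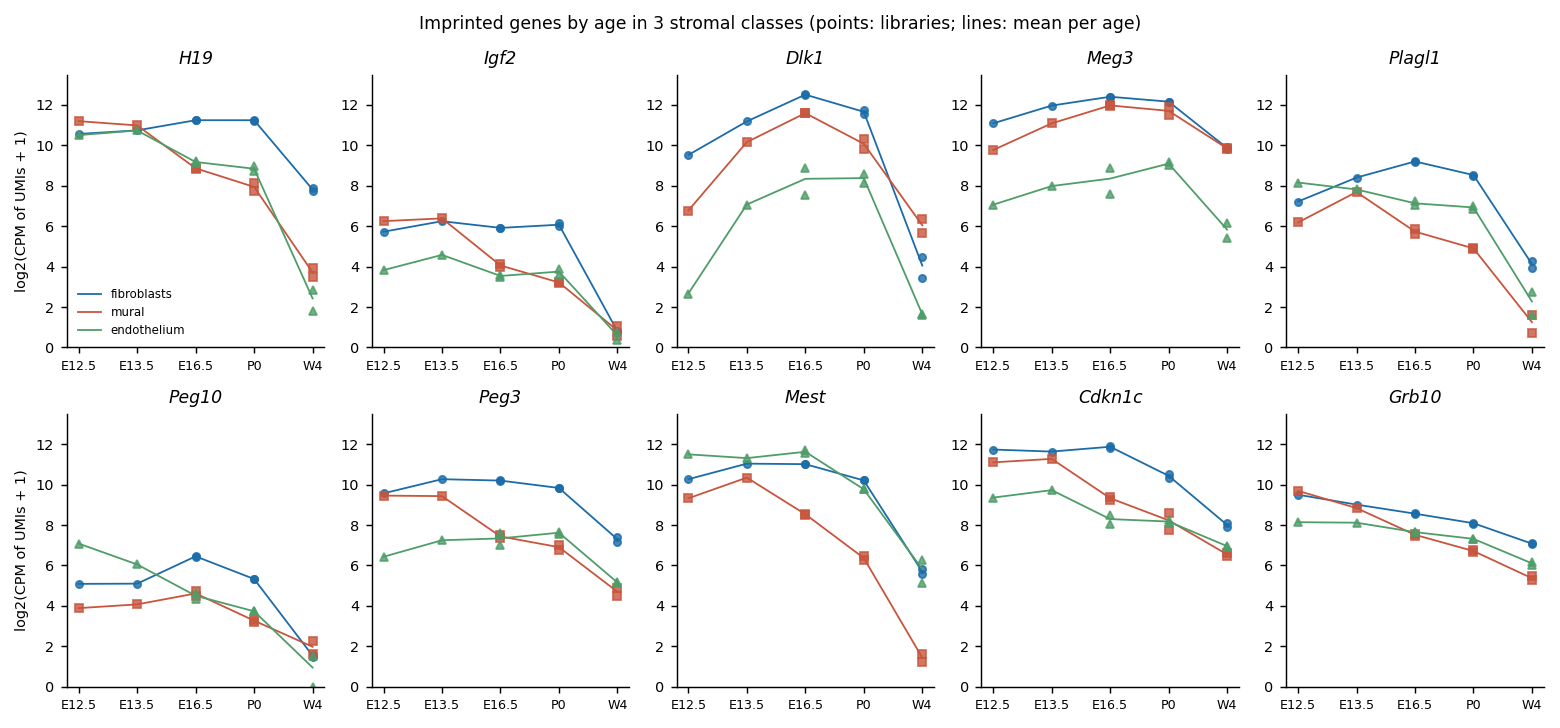
Level of each of the 10 genes as log2(CPM of UMIs + 1) against age in fibroblasts, mural cells and endothelium, with 1 point per library and lines through the mean of each age. In fibroblasts most lines stay level or climb to E16.5 before the drop at 4 weeks, whereas in mural cells *H19*, *Igf2*, *Grb10*, *Peg3* and *Cdkn1c* are already below 0.5 times their E12.5 level at E16.5.

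In cells labelled as mural, part of the group was already lower at E16.5 than at E12.5. By E16.5, 5 of 10 members were below 0.5 times their E12.5 level, with 19.1% of all genes so. In fibroblasts 0 of 10 were (25.2% of all genes) and in endothelium 4 of 10 (12.4%), and 3 of 10 mural members were higher at E16.5 than at E12.5. Whether these courses differ between classes was not tested, and E12.5 and E13.5 had 1 library each. *H19* went from 2341 CPM at E12.5 and 2023 at E13.5 to 454.9 and 473.6 at E16.5, 212.0 and 277.5 at P0 and 10.0 and 14.2 at 4 weeks. *Igf2* followed from 75.0 and 82.6 to 14.9 and 16.4, 8.08 and 8.48, then 1.11 and 0.464 CPM. Both genes were thus lower in every mural library from E16.5 on than in any earlier one, which was not so in fibroblasts.

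The *Dlk1* and *Meg3* domain took the other course in mural cells. *Dlk1* rose from 108.5 CPM at E12.5 and 1140 at E13.5 to 3116 and 3049 at E16.5 and was 48.8 and 81.2 at 4 weeks. *Meg3* stood at 869.6 CPM at E12.5, 3990 and 4041 at E16.5 and 943.6 and 894.0 at 4 weeks, which made it the 1 member of 10 whose mural level at 4 weeks was not below that at E12.5. *Mest* went from 639.2 CPM at E12.5 and 1299 at E13.5 to 1.34 and 2.09 at 4 weeks. At 4 weeks, 8 of 10 members were below 0.5 times E12.5, with 21.6% of all genes so, and the median fall from E12.5 and E13.5 was 26.5-fold over 1407 mural cells.

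In endothelium *Mest* stood at 2888 CPM at E12.5, 2537 at E13.5, 3336 and 2975 at E16.5, 870.1 and 872.0 at P0 and 34.5 and 76.1 at 4 weeks. *H19* stood at 1451 and 1700, 554.0 and 599.3, 418.9 and 495.9, and 2.48 and 6.26 CPM. *Peg10*, at 134.6 CPM at E12.5, was 1.86 and 0 CPM at 4 weeks. All 10 members were below 0.5 times E12.5 at 4 weeks, with 18.9% of all genes so, over 868 cells, but for *Dlk1* this rests on 13 UMIs at E12.5 (5.35 CPM) and 7 and 6 UMIs at 4 weeks (2.17 and 2.09 CPM). The fall from E12.5 and E13.5 was 3.41-fold for *Peg3*, 49.05-fold for *Mest* and 360.5-fold for *H19*. *Dlk1* (276.2 and 386.8 CPM) and *Meg3* (522.1 and 568.7 CPM) had UMIs in P0 endothelium. Within the sorted bulk libraries at P0, median *Dlk1* was 0.487 CPM of reads in CD31+ cells and 2345 in gp38+CD26+ fibroblasts. Median *Meg3* was 0 and 65.2 CPM in the same groups. The part of free RNA from other cells in the endothelial UMIs was not tested.

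Expression of the 16 cell-cycle genes fell over the same ages, from 336.8 CPM at E12.5 to 71.8 and 60.4 CPM at 4 weeks in fibroblasts, and their part in these falls was not tested. Blood cell markers in the same fibroblasts went from 9.50 CPM at E12.5 to 1286 and 2014 CPM at 4 weeks, and their part was not tested either.

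The fall was seen subtype by subtype. Of 120 pairs of member and subtype with at least 20 cells at E12.5 and at 4 weeks, 118 were lower at 4 weeks, where 55.2% of all pairs of gene and subtype were, a fall that the rule chose. The other 2 were *Meg3*, which was lower in 10 of 12 subtypes, with a median fold of 2.17. Median folds over subtypes were 34.7 for *Mest* (10.7 in CapFb2b to 646.8 in Pc), 22.3 for *H19* (2.08 in CapFb2b to 813.3 in Mes), 17.5 for *Cdkn1c* (3.57 in EnC to 29.96 in Pc), 5.25 for *Peg3* and 4.96 for *Grb10*. The *H19* fold in Mes rests on 20 cells at E12.5 and on 1 and 9 UMIs at 4 weeks. The *H19* median is over the 11 of 12 subtypes with enough UMIs for a fold. Pericytes had the largest fold of the 12 subtypes for *Mest*, *Peg3*, *Cdkn1c* and *Grb10*. The *Mest* fold in Pc rests on few UMIs, since all mural cells held 6 and 9 at 4 weeks.

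Among the 8 members above 0 in every fibroblast subtype at 4 weeks, *H19* differed most between subtypes. At E12.5 the lowest and highest of 6 fibroblast subtypes differed by 1.20-fold in *H19*, MedFb2a and CapFb4 not being among them, and at P0 the lowest and highest of 11 by 6.24-fold, between MedFb2a at 1006 CPM and CapFb4 at 6279 CPM. At 4 weeks the span was 246-fold, from 2.07 and 4.43 CPM in the libraries of MedFb2a to 809.9 and 791.5 CPM in CapFb2b. Averaged over subtypes, *H19* at 4 weeks stood at 330.9 CPM in capsular and 21.8 CPM in medullary fibroblasts.

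The other members were mostly lowest in medullary subtypes at 4 weeks, but *Peg10* was lowest in a capsular one (CapFb2a), and *Igf2* was at 0 in CapFb1a, MedFb1a and MedFb2b alike. The CapFb mean was above the MedFb mean for 10 of 10 members at 4 weeks, where it was so for 36.1% of all genes. It was above for 9 of 10 at E12.5 (56.0% of all genes), 7 of 10 at E13.5 (66.2%), 9 of 10 at E16.5 (55.3%) and 9 of 10 at P0 (45.1%). The subtypes averaged differed by age, with 5 capsular and 1 medullary at E12.5, 7 and 3 at E13.5, and 7 and 4 from E16.5 on. At 4 weeks MedFb2a was the lowest subtype for 7 of 10 members (6.2% of all genes) and CapFb4 the highest for 6 of 10 (10.7%). *Mest* ranged from 4.87 CPM in MedFb2a to 121.7 in CapFb2b, and *Peg3* from 27.03 in MedFb2a to 427.3 in CapFb3. *Cdkn1c* already spanned 9.81-fold at E16.5, from 961.5 CPM in MedFb2a to 9322 and 9549 CPM in the libraries of CapFb4, and 8.99-fold at 4 weeks, when CapFb4 was at 505.5 CPM. With *Igf2* and *Dlk1* at 0 in their lowest subtypes, no span is given for them. *Meg3* and *Grb10* had spans of 3.68-fold and 3.49-fold at 4 weeks. Subtypes were defined from expression in these same cells, so the spans carry no test.

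**Figure D2:**
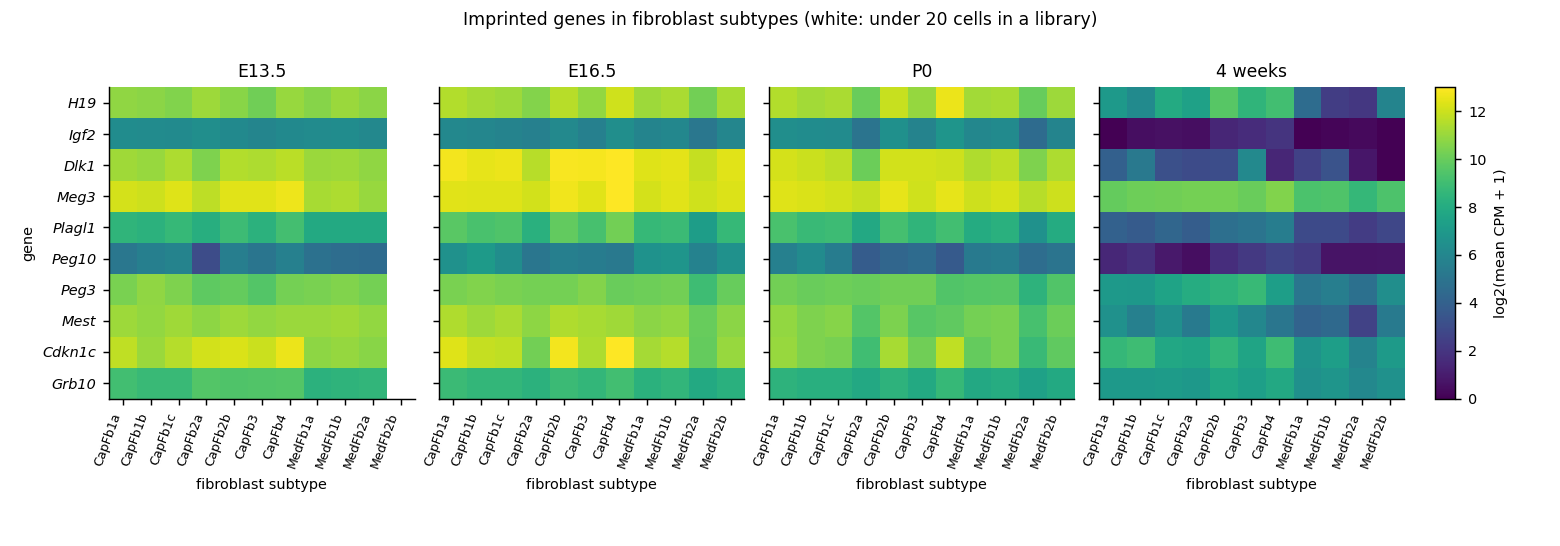
Heat maps of log2(mean CPM + 1) of the 10 genes (rows) in fibroblast subtypes (columns), with a panel for E13.5, for E16.5, for P0 and for 4 weeks, and with subtypes under 20 cells left white. At 4 weeks *H19* spans 3.25 CPM in MedFb2a to 800.7 CPM in CapFb2b, and most genes are highest in CapFb4.

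Fewer members were detected per cell at 4 weeks. With every cell thinned to 2000 UMIs, a fibroblast had a UMI of on average 5.70 of the 10 members at E12.5, 6.78 at E13.5, 6.81 and 6.83 at E16.5, 6.00 and 5.96 at P0, and 1.54 and 1.65 at 4 weeks. Mural cells went from 5.15 members at E12.5 to 0.999 and 1.03 at 4 weeks. These counts include UMIs from free RNA, whose part was not tested. Fibroblasts with 8 or more members detected made up 9.14% at E12.5, 26.6% at E13.5, and 33.2% and 34.7% at E16.5. At 4 weeks they were 0 of 1324 and 0 of 1967 cells, which allows shares of up to 0.227% and 0.153% by counting error alone. Fibroblasts with none of the 10 rose from 0.175% and 0.115% at P0 to 19.7% and 18.3% at 4 weeks.

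For single members, 92.01% and 91.3% of thinned E16.5 fibroblasts had a UMI of *H19*, against 11.3% and 12.9% at 4 weeks. For *Dlk1* the shares were 98.4% and 98.02% at E16.5 and 1.44% and 3.46% at 4 weeks. In the endothelium of the same P0 libraries, thinned in the same way, *Dlk1* was detected in 18.2% and 14.2% of cells. Free RNA from fibroblasts can give UMIs in other cells, and its part in these endothelial shares was not tested.

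**Figure D3:**
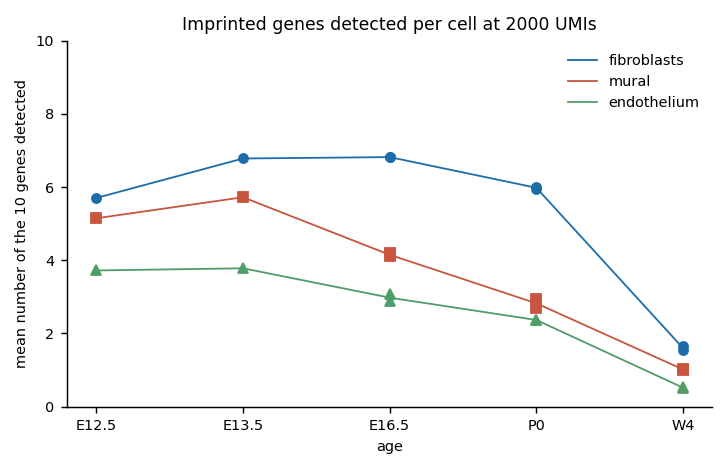
Mean number of the 10 genes with a UMI per cell, after thinning each cell to 2000 UMIs, by age for fibroblasts, mural cells and endothelium, with 1 point per library. Fibroblasts hold 5.70 to 6.83 genes per cell up to P0 and 1.54 and 1.65 at 4 weeks, and the part of free RNA in the endothelial counts was not tested.

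In the sorted bulk populations the same genes were lower at 4 weeks than at P0, most steeply in gp38+CD26- fibroblasts. A fall by over 2-fold was seen in 10 of 10 members in gp38+CD26+ cells (23.4% of all genes), in 10 of 10 in gp38+CD26- (24.6%), in 10 of 10 in Ly51+gp38- (22.9%), in 9 of the 9 members with at least 10 counts in CD31+ (25.7%), in 8 of 10 in cTEC (15.5%) and in 8 of 10 in mTEC (18.6%). The rule used this contrast, so these counts describe the choice. Among members with counts at both ages the median fold was 81.7 in gp38+CD26- cells, 23.8 in gp38+CD26+, 22.8 in CD31+, 16.96 in Ly51+gp38-, 4.08 in cTEC and 2.99 in mTEC cells. The cTEC value depended on the libraries, with a median fitted log2 fold of -1.01 in those titled TXCK and -3.35 in those titled DFCK. In bulk samples, fewer cells of a type and less RNA per cell cannot be told apart.

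At P0 the *H19* level in gp38+CD26- fibroblasts had a lowest, median and highest value of 2232, 2448 and 2664 CPM, and at 4 weeks of 0.257, 3.25 and 36.5 CPM. In gp38+CD26+ fibroblasts it was 2077, 2229 and 2545 CPM at P0 and 88.6, 160.7 and 199.9 CPM at 4 weeks. The P0 levels of the fibroblast groups overlapped, while every 4-week gp38+CD26- library lay below every gp38+CD26+ library.

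*Igf2* in gp38+CD26+ cells stood at 558.2, 744.0 and 852.9 CPM at P0 and 11.04, 18.2 and 35.2 CPM at 4 weeks. In CD31+ cells it stood at 303.4, 535.3 and 982.9 CPM at P0 and 7.66, 10.2 and 14.5 CPM at 4 weeks. The P0 ranges of fibroblasts and endothelium overlapped for this gene, unlike for *H19*, at 316.1, 403.2 and 468.4 CPM in CD31+ cells. At 4 weeks *H19* was at 0 in 5 of 6 CD31+ libraries.

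*Mest* was about as high in CD31+ cells (3477, 4824 and 7015 CPM at P0, 104.5, 139.6 and 186.0 CPM at 4 weeks) as in gp38+CD26+ fibroblasts (2706, 4374 and 5834 CPM, then 79.1, 129.6 and 170.5 CPM). In gp38+CD26- cells it fell further, from 2904, 3148 and 4505 CPM to 8.07, 12.9 and 29.8 CPM. *Dlk1* was shared by fibroblasts (1964, 2345 and 3138 CPM in gp38+CD26+ at P0) and Ly51+gp38- cells (1093, 1200 and 1492 CPM), and at 4 weeks was higher in the latter, at 21.9, 27.9 and 54.1 CPM against 0, 2.27 and 16.498 CPM. *Peg10* was at 0 in all 6 gp38+CD26- libraries at 4 weeks, after 47.2, 89.7 and 143.1 CPM at P0.

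The smallest falls in gp38+CD26+ fibroblasts were those of *Grb10* (3.001-fold between mean levels) and *Cdkn1c* (5.56-fold). *Cdkn1c* in gp38+CD26+ cells went from 3972, 4647 and 10143 CPM to 660.4, 991.6 and 1381 CPM, and in mTEC from 358.5, 1224 and 1870 CPM to 111.5, 361.0 and 739.0 CPM. *Grb10* in gp38+CD26+ cells went from 1744, 2276 and 3130 CPM to 536.9, 822.2 and 870.3 CPM, and in cTEC from 326.4, 380.7 and 510.9 CPM to 19.1, 40.4 and 102.1 CPM. Every P0 library was above every 4-week library for *Grb10* in both populations. *Plagl1* in mTEC did not fall, with a mean of 20.1 CPM at P0 and 22.5 CPM at 4 weeks.

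Compared per length, the mean P0 level in gp38+CD26+ fibroblasts was highest for *Cdkn1c* (2741 RPKM), then *Mest* (1124), *H19* (923.5), *Dlk1* (434.4), *Grb10* (255.1), *Igf2* (123.1), *Peg3* (69.1), *Plagl1* (26.1), *Peg10* (12.7) and *Meg3* (3.47). The length was that of all annotated exons of a gene merged, from 2039 bases for *Cdkn1c* to 18089 for *Meg3*, and the order depends on that choice. The assays gave different levels of the same gene: *Meg3* held 4550 and 4591 CPM of UMIs in P0 fibroblasts of the age series and a median of 65.2 CPM of reads in bulk gp38+CD26+ cells, and *Igf2* 69.98 and 62.5 CPM of UMIs and 744.0 CPM of reads. Levels are therefore compared only within an assay.

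**Figure D4:**
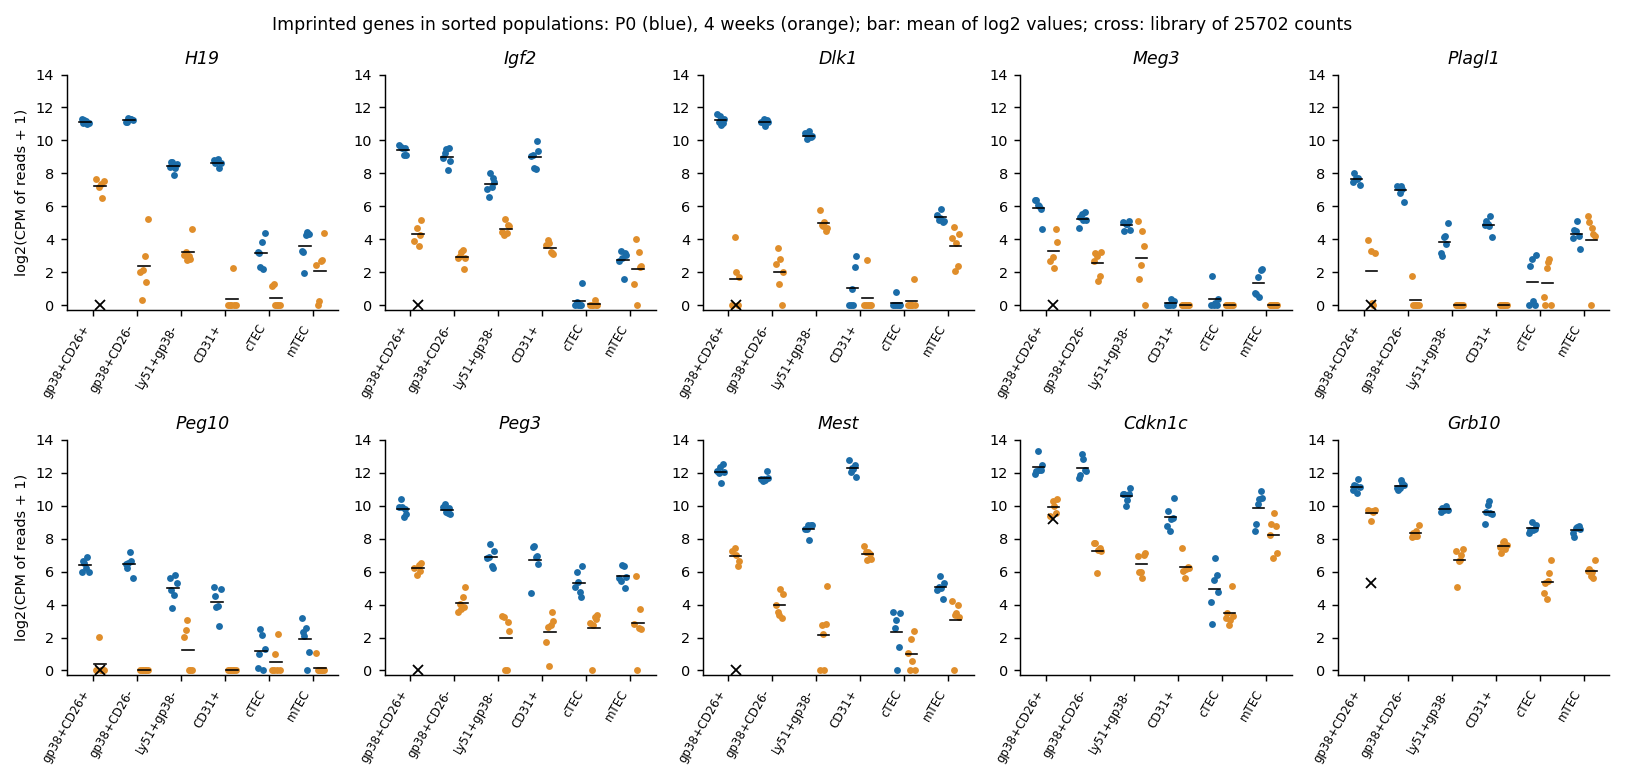
Level of each of the 10 genes as log2(CPM of reads + 1) in every bulk library by sorted population, with P0 in blue, 4 weeks in orange, bars at the mean of the log2 values and a cross for the library of 25702 counts. The age groups separate for most genes in CD31+, Ly51+gp38- and gp38+ cells, and least in cTEC and mTEC.

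The levels of blood cell markers also differed between these ages, with medians of 7.56 CPM at P0 and 1541 CPM at 4 weeks in gp38+CD26+ cells, and cell-cycle genes went from 783.7 to 245.1 CPM in gp38+CD26- cells but from 613.1 to 1487 CPM in cTEC. Their part in the members' levels was not tested.

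Whether these genes mark one stromal population over another at the same age was tested on all 84 libraries (edgeR quasi-likelihood test, Benjamini-Hochberg adjustment over 19969 genes). The P0 and 4-week levels of these libraries entered the choice of genes through the falls, so that higher P0 levels favoured a gene's choice, and the tests between populations are not independent of it. At P0 all 10 members were higher in fibroblasts (mean of both gp38+ populations) than in epithelium (mean of cTEC and mTEC), where 14.9% of genes were. The log2 differences ranged from 2.70 ± 0.23 (SE) for *Grb10* to 10.23 ± 0.90 for *Dlk1* (adjusted p = 7.0e-16), with 8.92 ± 0.50 for *Igf2* (adjusted p = 1.64e-25) and 7.82 ± 0.76 for *H19* (adjusted p = 5.2e-14). *Mest* (8.21 ± 0.75), *Meg3* (5.82 ± 0.83), *Peg10* (5.21 ± 1.03), *Cdkn1c* (4.76 ± 0.37), *Plagl1* (4.50 ± 0.77) and *Peg3* (4.29 ± 0.55) lay between. The median member was 5.51 log2 units higher in fibroblasts and the median gene 0.41 lower.

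Against endothelium at P0, 7 of 10 members were higher in fibroblasts, where 14.1% of genes were: *Dlk1* (10.27 ± 1.21), *Meg3* (9.08 ± 1.36), *Cdkn1c* (3.101 ± 0.46), *Peg3* (3.02 ± 0.70), *H19* (2.66 ± 0.80, adjusted p = 0.00733), *Plagl1* (2.57 ± 0.93, adjusted p = 0.0294) and *Grb10* (1.62 ± 0.28, all log2 ± SE by edgeR). *Mest* (-0.26 ± 0.66, adjusted p = 0.981) and *Igf2* (0.28 ± 0.43, adjusted p = 0.807) were not called different, nor was *Peg10* (2.30 ± 1.19, 0.156). The called genes included both noncoding RNAs and both genes of the *Dlk1* domain, *Meg3* being in both groups, and no test compared such groups.

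Against Ly51+gp38- cells at P0, 7 of 10 members were higher in fibroblasts, where 4.9% of genes were. *Plagl1* (log2 difference 3.51 ± 0.98, edgeR adjusted p = 0.00983), *Mest* (3.38 ± 0.80, 0.00177), *Peg3* (2.99 ± 0.70), *H19* (2.86 ± 0.81, 0.00983), *Igf2* (1.98 ± 0.46, 0.00153), *Cdkn1c* (1.88 ± 0.43) and *Grb10* (1.51 ± 0.28) passed. *Dlk1* (1.003 ± 0.74, 0.515), *Meg3* (0.90 ± 0.85, 0.687) and *Peg10* (1.44 ± 1.13, 0.56) did not, but did so when these groups were compared alone. Both genes of the *H19* domain and both zinc finger genes were among those called in the main fit, where neither gene of the *Dlk1* domain was. The domains were not compared by a test.

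Between the fibroblast populations at P0, 0 of 10 members differed by edgeR, 0 at an unadjusted p under 0.05 and 0 by DESeq2, with 3.48% of genes called in either direction. *H19* differed by -0.02 ± 0.80 and *Igf2* by 0.44 ± 0.49 on the log2 scale (gp38+CD26+ minus gp38+CD26-), and *Dlk1*, *Meg3*, *Plagl1*, *Peg10*, *Peg3*, *Mest*, *Cdkn1c* and *Grb10* by -0.04 to 0.79. Compared alone, the groups differed in 1 member, *Plagl1*, by 0.76 (adjusted p = 0.0376).

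At 4 weeks 6 of 10 members were higher in gp38+CD26+ than in gp38+CD26- cells, where 3.09% of genes were. The log2 differences by edgeR were 4.08 ± 0.92 for *H19* (adjusted p = 0.00175), 3.92 ± 1.12 for *Plagl1* (0.0202), 2.87 ± 0.84 for *Mest* (0.0228), 2.54 ± 0.48 for *Cdkn1c* (0.000131), 1.64 ± 0.52 for *Igf2* (0.0389) and 1.06 ± 0.31 for *Grb10* (0.0217). Without the library of 25702 counts the same 6 members were called, with *H19* at 4.25 (adjusted p = 0.00117) and *Grb10* at 1.29 (0.000276). *Grb10* was not called when these groups were compared alone (adjusted p = 0.176), nor *Igf2* without the filter on low counts (0.0666). *Dlk1* (0.09 ± 0.89), *Meg3* (0.91 ± 0.97) and *Peg3* (2.002 ± 0.72, adjusted p = 0.0803) were not called, nor was *Peg10* (adjusted p = 0.0553), which was at 0 in all 6 gp38+CD26- libraries and detected in 1 gp38+CD26+ library, at 3.06 CPM. The bulk order, with capsular fibroblasts above medulla-enriched ones, was that of the single-cell subtypes at this age. Whether the difference between fibroblast populations changed with age was not tested.

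Against endothelium at 4 weeks, 7 of 10 members were higher in fibroblasts, where 15.0% of genes were, among them *H19* (5.88 ± 1.01, edgeR adjusted p = 2.64e-06), *Peg3* (2.86 ± 0.70), *Cdkn1c* (2.32 ± 0.44) and *Grb10* (1.47 ± 0.28). *Meg3* and *Plagl1* passed with all 6 CD31+ libraries at 0. For *Plagl1* the fibroblast side was low too, as 5 of 6 gp38+CD26- libraries held no count. Its mean over the 5 libraries of gp38+CD26+ cells was 6.17 CPM. The *Plagl1* call therefore does not describe gp38+CD26- fibroblasts. *Dlk1* (2.32 ± 0.87, adjusted p = 0.0376) did not pass with DESeq2 (0.0552). *Igf2* (0.29 ± 0.44, 0.828) and *Mest* (-1.54 ± 0.65, 0.0694) were not called, as at P0, nor was *Peg10*, which was at 0 in all 6 CD31+ libraries.

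Against Ly51+gp38- cells at 4 weeks 5 members were higher in fibroblasts, where 9.59% of genes were, and 2 lower, where 11.4% of genes were. *Peg3* (2.99 ± 0.71), *Mest* (2.39 ± 0.77, edgeR adjusted p = 0.0172), *Grb10* (2.12 ± 0.29), *Cdkn1c* (2.10 ± 0.44) and *Plagl1*, which was at 0 in all 6 Ly51+gp38- libraries, were higher. *Dlk1* was lower by a log2 difference of -2.76 ± 0.72 (adjusted p = 0.00274), and so was *Peg10* (0.00431). *Peg10* was at 0 in 3 of 6 Ly51+gp38- libraries, with a mean of 2.47 CPM, and in all 6 gp38+CD26- libraries. *Plagl1* was at 0 in 5 of 6 gp38+CD26- libraries. *H19* was called only without the library of 25702 counts (2.03, adjusted p = 0.0486, against 1.91 ± 0.77 and 0.0698 with it). *Igf2* (-1.01 ± 0.42, 0.0759) and *Meg3* (-0.56 ± 0.81, 0.828) were not called.

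Against epithelium at 4 weeks 7 members were higher in fibroblasts, where 13.9% of genes were, with *Igf2* at 4.60 ± 0.48 (edgeR adjusted p = 1.11e-12), *H19* at 4.52 ± 0.69 and *Grb10* at 3.22 ± 0.23 (1.89e-19). *Mest* (3.67 ± 0.62), *Cdkn1c* (2.67 ± 0.34), *Peg3* (2.09 ± 0.51) and *Meg3*, which was at 0 in all cTEC and mTEC libraries, were the others, and *Dlk1* (1.20 ± 0.67, 0.161) and *Peg10* (-2.10 ± 1.17, 0.157) were not called. *Plagl1* was the 1 member lower, by -2.09 ± 0.73 (0.0171), where 25.8% of genes were, and was not called with these groups alone (0.14). The contrast averages unlike groups, and gp38+CD26- cells did not exceed mTEC in every member called higher. Mean *Cdkn1c* was 160.05 CPM in gp38+CD26- cells and 364.4 CPM in mTEC. *Igf2* was at 6.69 and 5.56 CPM, and *Grb10* at 328.8 and 67.1 CPM.

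Within epithelium several members were higher in the medulla. At P0, 5 of 10 were lower in cTEC than in mTEC, where 26.2% of genes were: *Dlk1* (log2 difference -8.65 ± 1.30), *Cdkn1c* (-4.77 ± 0.53, edgeR adjusted p = 3.99e-11), *Igf2* (-4.53 ± 0.64), *Plagl1* (-2.93 ± 1.02, 0.0215) and *Mest* (-2.68 ± 0.84, 0.0101). *Meg3* (-2.09 ± 1.01, 0.113), *Peg10*, *H19*, *Peg3* and *Grb10* (-1.15 to -0.02) were not called. At 4 weeks 6 of 10 were lower, where 23.2% of genes were, the same 5 with *H19* (-3.91 ± 1.003, 0.00199), but only 2 with these groups compared alone, and 7, with *Grb10*, without the library of 25702 counts. *Peg3* (-1.25 ± 0.71, 0.184), *Grb10* (-0.63 ± 0.31, 0.107) and *Peg10* (1.87 ± 1.40, 0.338) were not called, and *Meg3* was at 0 in both groups. Mural markers summed to 2238 to 3460 CPM in the P0 mTEC libraries, and their part in these levels was not tested. In mTEC at 4 weeks *Igf2* was higher in mTEChi (4.59, 6.01 and 12.7 CPM) than in mTEClo (0, 0 and 0.362 CPM), by 6.52 ± 0.76 (edgeR adjusted p = 7.55e-10). It was the only member of 10 called in either direction, where 14.7% of genes were called higher and 3.86% lower. *Grb10* lay the other way, at 32.0, 45.3 and 69.1 CPM in mTEChi and 87.7, 102.0 and 138.4 CPM in mTEClo, a difference of -0.82 ± 0.31 (adjusted p = 0.0506). It was called under 5 of the alternative settings, by DESeq2 (0.0165) and without the library of 25702 counts (0.00741) among them. *H19*, *Dlk1*, *Meg3*, *Plagl1*, *Peg10*, *Peg3*, *Mest* and *Cdkn1c* differed by -0.59 to 1.54, with adjusted p of 0.219 or more.

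Whether combined loss of 1 copy of *Tbx1* and *Crkl* changed these genes in newborn stroma was tested on UMIs summed per library and class. No member was called in fibroblasts (0 of 10, with 0.0% of all genes called), mural cells (0 of 10, 0.112%), endothelium (0 of 9, 0.0126%) or epithelium (0 of 10, 0.0%) by edgeR. At an unadjusted p under 0.05 there were 1, 2, 1 and 3 members, beside 1007 of 11897, 643 of 10671, 273 of 7957 and 851 of 13718 genes. DESeq2 called 0, 0, 0 and 1 member, beside 0.0564%, 0.0214%, 0.00564% and 0.0243% of all genes. The libraries of the genotypes did not overlap for 3 of 10 members in fibroblasts (12.1% of all genes), 3 in mural cells (10.4%), 2 in endothelium (8.38%) and 3 in epithelium (10.5%). Median UMIs per cell did not overlap between the genotypes either. They were 2577, 3631 and 4686 in WT and 2551, 2391 and 2506 in Tbx1+/-Crkl+/- libraries. The part of this depth in the levels was not tested.

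*Grb10* was higher in every mutant library than in every WT library in fibroblasts, mural cells, endothelium and epithelium, without passing the test. In fibroblasts it stood at 441.6, 390.0 and 389.2 CPM in WT and 525.9, 528.3 and 586.1 CPM in Tbx1+/-Crkl+/- libraries (log2 difference 0.38 ± 0.21, edgeR adjusted p = 0.62). In mural cells it stood at 160.3, 160.3 and 149.2 against 198.3, 209.4 and 195.8 CPM (0.35 ± 0.19), and in endothelium at 214.1, 233.2 and 199.4 against 306.0, 289.9 and 279.3 CPM (0.43 ± 0.22). In epithelium it stood at 124.5, 99.04 and 90.9 against 133.8, 142.8 and 148.8 CPM (0.42 ± 0.19, edgeR adjusted p = 0.689). The same 3 libraries per genotype give all of these values. Thymocytes of the same libraries held 100.9, 91.3 and 100.4 CPM in WT and 52.2, 126.0 and 107.1 CPM in mutants, from 3 to 71 UMIs, where the genotypes overlapped. The part of free RNA in the levels of the other classes was not tested.

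*Igf2* lay the other way, in endothelium at 42.8, 49.7 and 51.6 CPM in WT and 23.5, 36.4 and 24.4 CPM in Tbx1+/-Crkl+/- libraries (-0.75 ± 0.29). In mural cells it was at 26.7, 27.2 and 27.8 against 17.2, 19.6 and 17.6 CPM (-0.59 ± 0.25, edgeR adjusted p = 0.665). Thymocytes held 22.4, 27.4 and 20.7 against 0, 19.5 and 6.69 CPM, from at most 11 UMIs, and the part of free RNA in the mural levels was not tested. In epithelium the fitted difference had the opposite sign, at 9.61, 4.65 and 9.25 against 7.10, 16.3 and 5.30 CPM, where the genotypes overlapped (0.34 ± 0.46, edgeR adjusted p = 0.79). In fibroblasts they overlapped as well, at 84.6, 121.7 and 133.0 against 83.8, 100.9 and 68.5 CPM. *Mest* in fibroblasts (740.6, 985.2 and 1143 against 739.0, 707.2 and 522.9 CPM, adjusted p = 0.568) separated the genotypes without passing the test, as did *Peg10* there (62.5, 78.9 and 59.9 against 58.9, 48.4 and 57.1 CPM, 0.633). *Plagl1* in mural cells (43.6, 34.6 and 25.6 against 45.3, 55.9 and 56.0 CPM, adjusted p = 0.475) did so too, with thymocytes at 0 to 97.6 CPM. In epithelium *Plagl1* stood at 43.5, 44.0 and 26.9 against 44.2, 80.1 and 62.6 CPM (0.73 ± 0.26, unadjusted p = 0.0203 and adjusted p = 0.689 by edgeR). *Dlk1*, *Cdkn1c* and *H19* overlapped in fibroblasts.

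*Meg3* in epithelium stood at 428.8, 212.3 and 253.6 CPM in WT and 637.4, 624.5 and 1070 CPM in Tbx1+/-Crkl+/- libraries (1.37 ± 0.32, edgeR adjusted p = 0.689), and was the member called by DESeq2 (1.34, adjusted p = 0.0182). Thymocytes of the same libraries held 459.8, 1137 and 481.2 against 556.6, 942.2 and 582.4 CPM (0.07 ± 0.32, adjusted p = 0.984). Of 18 subtypes tested, thymocytes among them, 1 gave a call of a member: in PrTEC, where 0.108% of genes were called higher, *Meg3* stood at 33.1, 35.6 and 33.7 CPM in WT and 85.5, 247.3 and 368.4 CPM in mutant libraries (2.76 ± 0.39, edgeR adjusted p = 0.000765), from 5 to 30 UMIs in WT and at least 11 in mutant libraries. The part of free RNA in the *Meg3* levels was not tested.

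**Figure D5:**
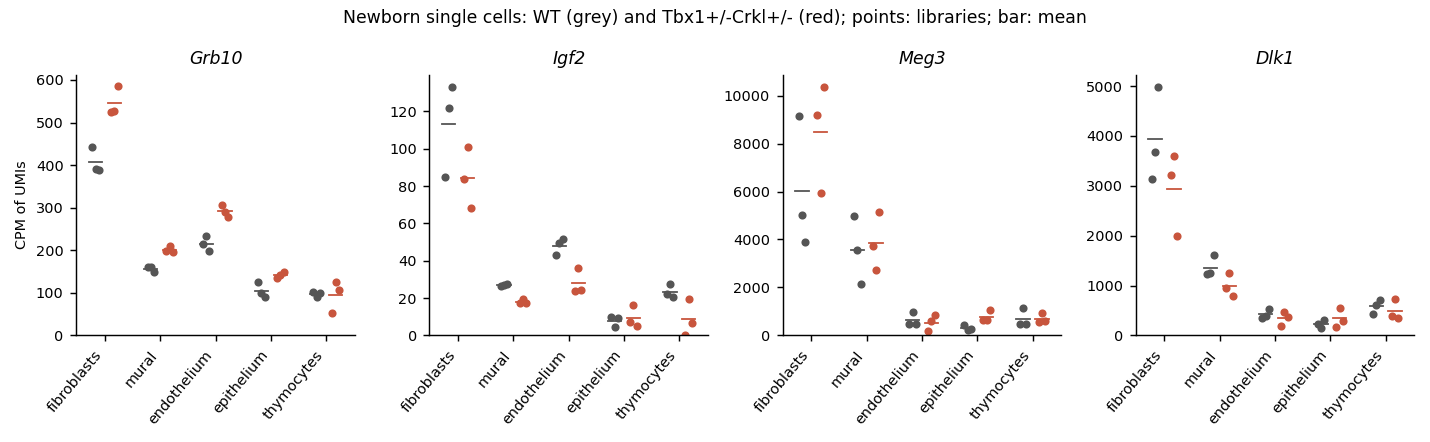
CPM of *Grb10*, *Igf2*, *Meg3* and *Dlk1* in each newborn library by cell class, thymocytes included, with WT in grey and Tbx1+/-Crkl+/- in red. *Grb10* is higher in all 3 mutant libraries in fibroblasts, mural cells, endothelium and epithelium, a difference that did not pass the test across all genes, and the genotypes overlap in thymocytes.

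Other imprinted genes did not all share the course of the 10. Of a list of 56, 50 were tested between P0 and 4 weeks in bulk (edgeR, all 84 libraries). In gp38+CD26- fibroblasts 10 fell and 1 rose, with 5.07% and 7.98% of all genes called in these directions, and in gp38+CD26+ cells 7 fell and 1 rose (3.84% and 6.05% of all genes). In Ly51+gp38- cells 7 fell and 0 rose by edgeR, while DESeq2 called 2 higher (5.27% and 5.84% of all genes), and in CD31+ cells 6 fell and 1 rose (5.52% and 4.48%). In cTEC 1 fell and 1 rose (2.21% and 7.33%), and in mTEC 1 fell and 0 rose by edgeR (1.54% and 1.83%). Without the library of 25702 counts, 3 rose in cTEC and 1 in mTEC, the other counts of this contrast staying within 1.5 times. The list medians were near those of all genes, from -0.44 in gp38+CD26- to 0.06 in cTEC.

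*Klf14*, a maternally expressed transcription factor beside *Mest*, was at 23.6, 106.0 and 158.7 CPM in gp38+CD26- cells at P0 and at 0 in all 6 libraries at 4 weeks, as it was in Ly51+gp38- and CD31+ cells at that age. *Magel2*, from the imprinted domain of Prader-Willi syndrome, went from 16.1, 21.4 and 35.5 CPM in gp38+CD26+ cells to 0 in all 5 libraries, and *Zim1*, a neighbour of *Peg3*, and *Sfmbt2* also reached 0 there. In gp38+CD26- cells *Magel2* (6.19, 19.5 and 48.5 CPM at P0) and *Zim1* (0, 5.53 and 14.8 CPM) were called as well and were at 0 in all 6 libraries at 4 weeks. In Ly51+gp38- cells *Slc22a18* and *Ddc*, and in CD31+ cells *Nnat* and *Sfmbt2*, were at 0 in every 4-week library. Against this, *Impact* rose in CD31+ cells (1.64 ± 0.32, edgeR adjusted p = 0.000215), *Commd1* in gp38+CD26- cells (0.87 ± 0.26, 0.0156) and *Slc22a18* in gp38+CD26+ cells (4.80 ± 1.45, 0.0225, from 5 of 6 libraries at 0). *Peg12* fell in cTEC (-3.61 ± 0.56, 2.32e-06), where *Dcn*, the collagen-binding proteoglycan decorin, rose (3.48 ± 0.77, 0.00117), and *Rian* in mTEC reached 0 in all 6 libraries. Chosen after its values were seen, *Gnas*, which encodes the stimulatory G protein subunit, fell in Ly51+gp38- cells from 1818, 2785 and 3359 to 112.7, 131.6 and 323.3 CPM (-3.85 ± 0.35, 2.45e-13).

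In fibroblasts of the age series, 28 of 50 other imprinted genes tested were lower and 10 higher at 4 weeks than at E12.5 and E13.5 (edgeR), where 35.9% and 36.4% of 16662 genes were. The leading falls were *Nnat* (-10.41 ± 0.28, adjusted p = 3.4e-07), *Magel2* (-9.06 ± 0.33) and *Phlda2*, a maternally expressed restrainer of placental growth (-6.14 ± 0.40), and the leading rises *Dcn* (6.28 ± 0.12), *Gatm* (4.56 ± 0.60) and *Ampd3* (2.45 ± 0.17). *Igf2r*, the receptor that clears IGF2, was not called (-0.02 ± 0.05).

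The genes around IGF2 did not fall as a group. Of 13 genes, the ligand gene *Igf1* and genes of receptors, adaptors, binding proteins and proteases, 10 were higher and 2 lower at 4 weeks in fibroblasts of the age series (edgeR), where 36.4% and 35.9% of all genes were. *Igfbp7* (log2 difference 9.37 ± 0.11), *Igfbp6* (8.89 ± 0.43) and *Htra1* (6.45 ± 0.07) rose most, and *Igfbp2* (-6.91 ± 0.18) and *Igfbp5* (-1.50 ± 0.12) fell. Here too the single libraries of E12.5 and E13.5 were assumed to vary like the replicated ages. *Igf1* stood at 249.0 CPM at E12.5, 694.0 at E13.5, and 444.8 and 593.9 at 4 weeks, and *Igf1r* at 100.8, 57.8, and 98.3 and 90.1 CPM. For both genes an early library lay above both 4-week libraries. Between P0 and 4 weeks in bulk, *Igfbp3*, the main carrier of circulating IGF, fell in gp38+CD26- cells from 1599, 2530 and 2876 to 77.5, 115.3 and 146.01 CPM (-4.22 ± 0.40, adjusted p = 1.5e-13), in gp38+CD26+ cells (-2.33 ± 0.37) and in Ly51+gp38- cells (-3.19 ± 0.38). Across the 6 populations the list gave 2 higher and 2 lower in gp38+CD26-, 2 and 1 in gp38+CD26+, 2 and 2 in Ly51+gp38-, 1 and 2 in CD31+, 6 and 1 in cTEC and 2 and 0 in mTEC. The shares of all genes called higher and lower were 7.98% and 5.07%, 6.05% and 3.84%, 5.84% and 5.27%, 4.48% and 5.52%, 7.33% and 2.21%, and 1.83% and 1.54% in the same order. *Igfbp2* fell in gp38+CD26- (-4.08 ± 0.83) and Ly51+gp38- cells (-3.85 ± 0.84) and reached 0 in all 6 CD31+ libraries, where *Irs1* (-3.52 ± 0.94) fell too. *Irs1* was already at 0 in 4 of 6 CD31+ libraries at P0, and in 5 of 6 at 4 weeks. *Igfbp7* rose in gp38+CD26- cells (3.42 ± 0.64) and mTEC (3.94 ± 0.72), *Igfbp5* in gp38+CD26+ cells (3.69 ± 0.81), *Igfbp6* in gp38+CD26+ (3.68 ± 0.94) and Ly51+gp38- cells (3.16 ± 0.94), and *Igf1* in mTEC (2.86 ± 0.73). *Htra1* rose in gp38+CD26- (1.27 ± 0.42), Ly51+gp38- (1.42 ± 0.42) and CD31+ cells (1.39 ± 0.42). In cTEC *Igfbp7* (8.88 ± 0.92), *Igfbp5* (6.29 ± 0.92) and *Htra1* (3.73 ± 0.46) were among those that rose and *Igf1r* fell (-2.03 ± 0.69, adjusted p = 0.0468).

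The genes whose levels ran most like the mean of the 10 were ranked by Pearson's r of log2(CPM + 1), as a description. Over 138 points of library and subtype in the age series (9088 genes, points of a library sharing its depth), *Nrk* (r = 0.912), *Ccnd3* (0.910) and the imprinted gene *Usp29* (0.903) were most alike, followed by *Sfr1*, *Rps26*, *Snhg6*, *Rpl14*, *Rpl41*, *Rps13* and *Tceal9* (0.863). Over the 84 bulk libraries (9856 genes) these were the angiotensin receptor gene *Agtr2* (0.895), *Nrk* (0.872) and *Klf14* (0.859), followed by *Cebpd*, *6330403K07Rik*, *Hif3a*, *Maged2*, *Igf2bp1*, *Igfbp3* and *Egr2* (0.779). *Nrk*, a kinase of the germinal centre kinase family, was the gene in the top 3 of both. Among the members themselves in the age series, *Plagl1* and *Igf2* were the most alike pair (r = 0.898) and *Mest* and *Meg3* the least (0.423).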

How the data were processed

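Cells were captured with a 3′ droplet kit and counted by the authors with Cell Ranger 3.1.0, and bulk libraries were aligned with STAR 2.5.3a and counted with HTSeq on mm10, as the submitters' processing notes list the tools. The authors deposited counts of UMIs per gene and cell, already filtered for cells with few genes, for mitochondrial reads and for doublets, with subtype labels, and bulk counts per gene. Counts were summed per library and subtype or class and scaled to CPM. Tests used edgeR 4.0.16 (quasi-likelihood, TMM, filterByExpr, adjusted p threshold 0.05) in R 4.3.3, with DESeq2 1.42.0 as an alternative, and were checked on simulated counts. For shares of cells, each cell was thinned to 2000 UMIs. Intervals and limits cover counting error only. Members and lists were chosen with earlier results of these data known. The 10 members were named in every comparison, of the other lists the 3 called genes with the largest change in each direction, and the 10 genes most like the members. Gene positions are from GENCODE vM21. Bulk entries that name no gene, 29.4% of the smallest library, were left out of totals.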

Additional observations from a re-analysis of the deposited data

Results flagged for a closer look

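Among 133 sets of 6 bulk values with any spread, 28 held a library far from the other 5. The cut is passed by about 1 in 20 sets of normally distributed values. Many of these values lie near 0, and a set with only 1 value above 0 always passes. The 28 are therefore listed without a comparison with chance. At 4 weeks in cTEC these were *Dlk1* at 1.98 CPM, *Peg10* at 3.64 and *Cdkn1c* at 34.04 in replicate 6, and *Igf2* at 0.237 in replicate 5. In 4-week mTEC they were *H19* at 20.1 and *Grb10* at 105.0 in replicate 6, *Peg10* at 1.06 in replicate 1 and *Peg3* at 51.3 in replicate 2. In mTEChi it was *Igf2* at 12.7 in replicate 5, and in mTEClo *Igf2* at 0.362 and *Meg3* at 0.996 in replicate 3 and *Peg10* at 2.69 in replicate 2.

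In 4-week Ly51+gp38- cells *H19* at 23.2 and *Mest* at 33.7 in replicate 6 and *Dlk1* at 54.1 in replicate 1 stood apart, in gp38+CD26- cells *H19* at 36.5 in replicate 6 and *Plagl1* at 2.44 in replicate 1, in gp38+CD26+ cells *Dlk1* at 16.498 and *Peg10* at 3.06 in replicate 3, and in CD31+ cells *H19* at 3.84 in replicate 4, *Dlk1* at 5.604 in replicate 3 and *Cdkn1c* at 175.6 in replicate 1. At P0 these were *Igf2* at 1.58 in replicate 6, *Dlk1* at 0.707 in replicate 3 and *Meg3* at 2.39 in replicate 2 of cTEC, *Cdkn1c* at 10143 in replicate 3 of gp38+CD26+, *Mest* at 4505 in replicate 5 of gp38+CD26- and *Mest* at 243.8 in replicate 4 of Ly51+gp38- cells, all in CPM. Only the last of these lay below its group.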

How the results depend on the processing

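No member reversed its direction where the main or the alternative run called it. Sign changes with neither run calling the member were not counted, nor were runs on the libraries titled TXCK or DFCK alone. Fitting the compared groups alone moved the members called from 0 to 1 between fibroblast populations at P0 and from 6 to 2 between cTEC and mTEC at 4 weeks. Between mTEChi and mTEClo 2 members were called, in place of 1, by DESeq2, with RLE size factors, with the groups alone, without the filter on low counts and without the library of 25702 counts. The newborn epithelium gave 1 call by DESeq2 and 1 in the subtype PrTEC alone, both *Meg3*. For other imprinted genes, DESeq2 gave 2 higher in CD31+, 2 higher in Ly51+gp38-, and 3 lower and 2 higher in cTEC. With the groups alone there were 3 lower and 0 higher in CD31+, 0 higher in gp38+CD26+, 3 higher in gp38+CD26-, 4 lower and 2 higher in cTEC, and 2 lower and 1 higher in mTEC. Without the library of 25702 counts there were 3 higher in cTEC and 1 higher in mTEC. For the bulk contrasts, the share of all genes called is given for the main fit only. The counts under other settings therefore do not show whether the listed genes moved apart from all genes.

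The median log2 fold of the members in age series fibroblasts, -3.78, was -3.64 with equal weight for subtypes, -3.54 with TMM scaling and between -3.91 and -3.66 without either 4-week library, and that in endothelium, -5.10, which rests on *Igf2* and *Dlk1*, was -5.74 after thinning. From P0 to 4 weeks in bulk the median fitted log2 fold was -4.72 in Ly51+gp38- (against -4.23) and -1.01 in cTEC (against -2.19) in the libraries titled TXCK, -3.98 in gp38+CD26+ (against -4.42) and -3.35 in cTEC in those titled DFCK, and -6.35 in gp38+CD26- (against -6.86) as a ratio of mean CPM. What these prefixes mean is not stated, and the cause of these shifts was not tested.

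Same-numbered newborn libraries of the genotypes correlated at 0.13, 0.03 and -0.42 in their deviations, so the numbers do not pair the samples. With the replicate number as a block, 0 members were called in each newborn class and 28 other imprinted genes were lower and 10 higher in the age series, as without the block. Without each library in turn, those counts ranged from 25 to 33 lower and 8 to 11 higher, and 0 members were called in each newborn class. Low counts limit *Igf2* and *Peg10* in the age series and most members in cTEC.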
